A study of Mus musculus with 6 samples.

Results

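The 4 regulators of epithelial identity Esrp1, Esrp2, Grhl2 and Ovol2 were set against the 6 regulators of epithelial-mesenchymal transition (EMT) Snai1, Snai2, Twist1, Twist2, Zeb1 and Zeb2 in epithelium and mesenchyme of the fetal mouse small intestine. Every probe set whose annotated symbol equalled one of these 10 names was taken, which gave 22 of the 45037 probe sets that were not controls, and 10 of 18161 genes. The 6 samples were 3 pools of epithelium (A, B, C) and 3 pools of mesenchyme (A, B, C), each from 3 embryos of C57BL/6 females at E18.5, hybridised to Affymetrix Mouse Genome 430 2.0 arrays. Opened intestines lay for 9 hours at 4 °C in a recovery solution before the layers were shaken apart, and the pools used were chosen by RT-PCR for low carry-over, with Vil1 and Prkg2 as epithelial and Vim, Madcam1 and Actg2 as mesenchymal transcripts. No genotype or treatment separated the groups, and both layers went through the same incubation. Nothing in the labels ties a pool to particular embryos, so p-values measure the spread between these pools only.

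In EMT, epithelial cells give up their junctions and become migratory. Snai and Zeb proteins are zinc-finger repressors, and Twist proteins are basic helix-loop-helix factors; all act on E-box sequences, and Snai and Zeb proteins repress Cdh1, the gene of E-cadherin. Grhl2 and Ovol2 are transcription factors that hold cells epithelial, partly by repressing Zeb1, while Esrp1 and Esrp2 are RNA-binding proteins that impose epithelial splicing on transcripts such as that of Fgfr2. Zeb1 in turn represses Esrp1, Grhl2 and Ovol2 in several cell systems.

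The pattern among the 10 genes was uneven on both sides. Snai2, Zeb1 and Zeb2 held the largest differences among the 22 probe sets. Of the 14 probe sets of all Snai, Twist and Zeb genes, 10 were called higher in mesenchyme, beside 15.5% of all probe sets. Snai2 differed 55.7-fold on its brighter probe set, where epithelium lay near background. Twist2 was called at 2.30-fold, while Snai1 and Twist1 lay higher in mesenchyme by less than 2-fold. On the epithelial side Esrp1 was higher in epithelium by 5.40-fold and Esrp2 by 2.19-fold, Ovol2 lay higher by 1.66-fold, and the 4 probe sets of Grhl2 disagreed in direction. A call here needed an adjusted p below 0.05 (limma, Benjamini-Hochberg) and a difference of at least 1 on the log2 scale, that is 2-fold.

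The deposited values were log2 expression values rounded to 0.1, and all differences are epithelium minus mesenchyme on that scale. Of all 45037 probe sets, 5.98% were called higher in epithelium and 15.5% higher in mesenchyme. By gene, represented by its brightest probe set, these shares were 8.19% and 15.9% of 18161. All 3 epithelial arrays lay above all 3 mesenchymal arrays for 12.4% of probe sets, and the converse held for 29.3%. The array medians were 8.1, 8.6 and 8.3 in epithelium A, B and C, against 8.7, 8.5 and 8.7 in mesenchyme A, B and C, and the median difference over all genes was -0.17. Rescaling moved that median by 0.27 (quantile), 0.21 (cyclic loess), 0.30 (equal medians) or -0.26 (equal hybridisation spike-in controls), so member differences near 1 were read against these shifts.

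The tissue labels were checked against marker genes. All 8 epithelial markers, among them Vil1 and Cdx2, were called higher in epithelium, and their summed linear level was 98533 to 114729 in epithelial arrays and 6987 to 12525 in mesenchymal arrays. All 7 fibroblast markers, among them Pdgfra and Lum, were called higher in mesenchyme, with sums of 2268 to 2675 in epithelium and 94704 to 101616 in mesenchyme. The mesenchymal layer held other cells as well: 7 of 7 smooth muscle, 7 of 8 endothelial, 5 of 7 enteric neuron and glia, 7 of 8 blood cell and 5 of 6 interstitial cell and mesothelium markers were called higher there. The summed smooth muscle level was 3254 to 3562 in epithelium and 82906 to 83518 in mesenchyme, and the endothelial sum was 3936 to 4898 in epithelium and 24987 to 29094 in mesenchyme. For enteric neurons and glia it was 1931 to 2460 in epithelium and 20711 to 22358 in mesenchyme, and for blood cells 12615 to 16740 in epithelium and 25870 to 28732 in mesenchyme. For interstitial cells and mesothelium it was 2459 to 3686 in epithelium and 7190 to 8086 in mesenchyme. In both of these last lists 1 uncalled marker held most of the epithelial sum. Without Csf1r, the blood cell sum was 1805 to 2477 in epithelium and 16928 to 19322 in mesenchyme, and without Upk3b the other was 907 to 1334 in epithelium and 4995 to 6038 in mesenchyme, a choice made after the values were seen. Vil1, Prkg2 and Actg2, which are on these lists, had served to choose the pools, so they are no independent check of the labels. Which of these cells carried the EMT regulators was not tested, and in these bulk samples fewer cells of a type and less RNA per cell cannot be told apart.

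**Figure D1:**
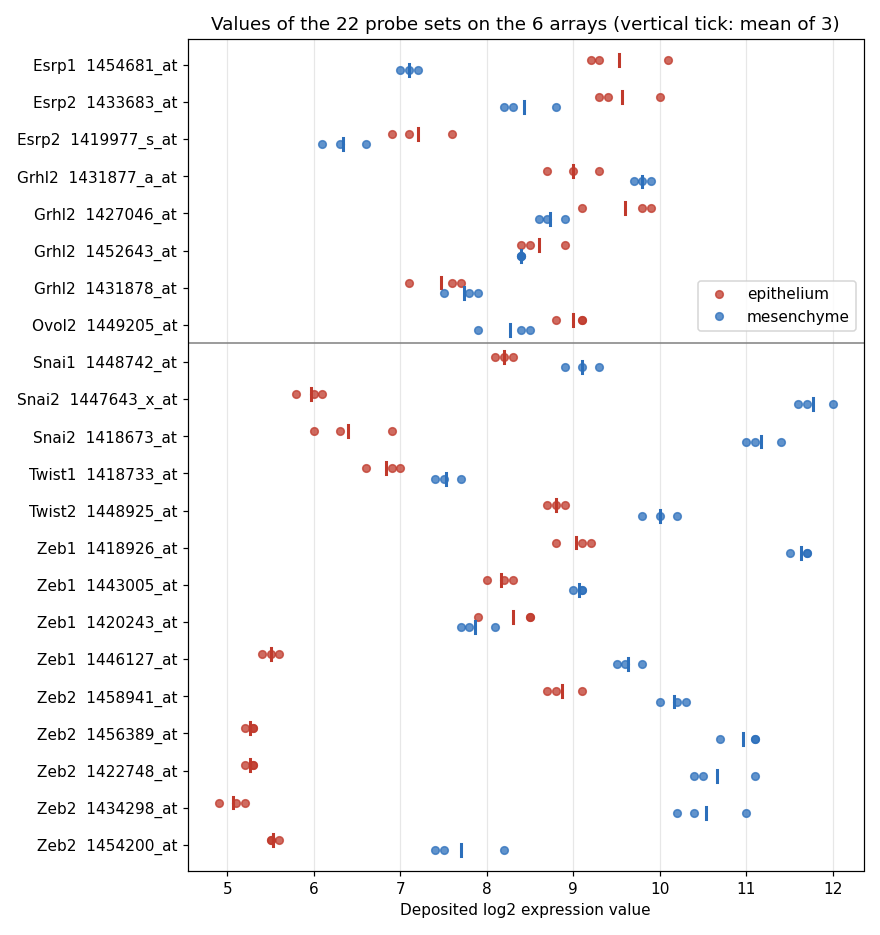
Deposited log2 value (x axis) of each of the 22 probe sets (rows) on the 3 epithelial (red) and 3 mesenchymal (blue) arrays, with a tick at the mean of 3 arrays. Snai2 and 3 of the 5 Zeb2 probe sets show the widest separation, while the 4 Grhl2 probe sets do not share a direction. Levels of different probe sets are not comparable with each other.

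Promoter windows of 300 bases (250 before to 50 after the start, RefSeq, GRCm38.p6) were given for 5 of the 10 genes. The windows used were searched for the E-box CAGGTG, which reads CACCTG on the other strand. The Ovol core CCGTTA, or its reverse complement TAACGG, and the palindromic Grhl site AACCGGTT were searched in the same way on both strands, and none of these motifs overlaps another. Among the windows used, only that of Snai1 held any of them, an E-box that begins at position -126 from the start. It is shown because Snai1 is itself an E-box binding repressor, with the window of Ovol2 as the epithelial regulator that has one. Capitals mark the E-box. The Snai1 window lies at chr2:167537945-167538244 on the plus strand and the Ovol2 window at chr2:144331313-144331612 on the minus strand.
Snai1: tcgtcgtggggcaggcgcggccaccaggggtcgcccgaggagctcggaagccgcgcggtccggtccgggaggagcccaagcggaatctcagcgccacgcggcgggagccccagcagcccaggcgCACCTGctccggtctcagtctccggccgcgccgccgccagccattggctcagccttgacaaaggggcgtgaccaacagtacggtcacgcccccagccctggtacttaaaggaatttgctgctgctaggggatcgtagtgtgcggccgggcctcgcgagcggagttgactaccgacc
Ovol2: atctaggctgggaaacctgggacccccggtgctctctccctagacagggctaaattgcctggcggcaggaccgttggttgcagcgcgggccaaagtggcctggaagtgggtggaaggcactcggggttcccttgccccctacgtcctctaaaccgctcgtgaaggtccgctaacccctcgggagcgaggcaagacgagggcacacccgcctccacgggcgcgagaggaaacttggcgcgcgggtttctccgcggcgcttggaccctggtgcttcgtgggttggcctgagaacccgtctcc
Of 32851 windows of this length, 20.2% held the E-box, 2.76% the Ovol core and 0.146% the Grhl site. The match describes letters only, and no match in the Ovol2 window says nothing about binding there.

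Esrp1, one of the 2 epithelial splicing regulators, had 9.2, 10.1 and 9.3 in epithelium A, B and C, against 7.2, 7.0 and 7.1 in mesenchyme A, B and C (1454681_at). Every epithelial pool lay above every mesenchymal pool, and epithelium B, the epithelial array with the highest median, was the highest. The means were 9.53 ± 0.49 in epithelium and 7.10 ± 0.10 in mesenchyme (SD, n = 3 each), a difference of 2.43 ± 0.24 (SE, limma, adjusted p = 1.23e-10). The call held under every alternative scaling and with each array left out. The mesenchymal values of Esrp1 lay not far above background, 0.75 to 1.33 above the mean of the bacterial control probe sets.

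Esrp2, the paralog of Esrp1 with overlapping splicing targets, had 9.3, 10.0 and 9.4 in epithelium A, B and C, against 8.8, 8.3 and 8.2 in mesenchyme A, B and C (1433683_at). The groups did not overlap, but epithelium A and mesenchyme A lay only 0.5 apart. The difference was 1.13 ± 0.24 (SE, limma, adjusted p = 0.000228). The call was lost without epithelium B (0.92) and with arrays scaled to the spike-in controls (0.87). As a gene, Esrp2 also lost its call on testing against a difference of 1. A dimmer Esrp2 probe set, 1419977_s_at, had 6.9, 7.6 and 7.1 in epithelium, against 6.6, 6.1 and 6.3 in mesenchyme. It gave 0.87 ± 0.24 (SE, limma, adjusted p = 0.00352), the same direction but short of 2-fold, and was called with quantile normalization (1.22), cyclic loess (1.05), equal medians (1.17), without epithelium A (1.02) and without mesenchyme A (1.0).

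Ovol2, a zinc-finger repressor of EMT genes, had 8.8, 9.1 and 9.1 in epithelium A, B and C, against 7.9, 8.5 and 8.4 in mesenchyme A, B and C (1449205_at). Epithelium lay above mesenchyme on all arrays. The means were 9.0 ± 0.17 in epithelium and 8.27 ± 0.32 in mesenchyme (SD, n = 3 each). The difference of 0.73 ± 0.23 (SE, limma, adjusted p = 0.0117) passed the p threshold but not 2-fold, and it passed both after quantile normalization (1.08) or with equal medians (1.03).

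Grhl2, a grainyhead-family activator of junction genes, gave different answers on its 4 probe sets. The brightest, 1431877_a_at, had 8.7, 9.3 and 9.0 in epithelium A, B and C, against 9.9, 9.8 and 9.7 in mesenchyme A, B and C. On it every mesenchymal pool lay above every epithelial pool, with a difference of -0.80 ± 0.23 (SE, limma, adjusted p = 0.00536). Probe set 1427046_at had 9.1, 9.9 and 9.8 in epithelium, against 8.7, 8.9 and 8.6 in mesenchyme. There the order was the opposite, with 0.87 ± 0.24 (SE, limma, adjusted p = 0.00372). Probe set 1452643_at had 8.4, 8.9 and 8.5 in epithelium and 8.4 on each mesenchymal array, and 1431878_at had 7.1, 7.6 and 7.7 in epithelium, against 7.8, 7.5 and 7.9 in mesenchyme. The groups overlapped on both, at 0.20 ± 0.23 for 1452643_at (SE, limma, adjusted p = 0.548) and -0.27 ± 0.23 for 1431878_at (SE, limma, adjusted p = 0.412). The sign of 1452643_at turned with spike-in scaling (-0.061), and that of 1431878_at with quantile normalization (0.044) and equal medians (0.033). No Grhl2 probe set was called in the deposited values, and their mean difference was 0. Probe set 1427046_at was called higher in epithelium with quantile normalization (1.21), cyclic loess (1.15), equal medians (1.17) and without epithelium A (1.12), and 1431877_a_at higher in mesenchyme with spike-in scaling (-1.06). The annotation gave no transcript accession for 4 of the 22 probe sets, namely 1431877_a_at and 1431878_at of Grhl2, 1420243_at of Zeb1 and 1447643_x_at of Snai2.

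Counted by probe set, 2 of the 8 of the epithelial regulators were called higher in epithelium, beside the 5.98% of all probe sets. Epithelial arrays lay wholly above mesenchymal arrays on 5 of the 8, beside 12.4% of all probe sets, mesenchymal above epithelial on 1, beside 29.3%, and the groups overlapped on 2. The differences ranged from -0.80 to 2.43 with a median of 0.80, against -0.17 over all probe sets.

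Snai2, known as Slug, an E-box repressor of neural crest and mesenchymal cells, had 6.0, 5.8 and 6.1 in epithelium A, B and C, against 12.0, 11.6 and 11.7 in mesenchyme A, B and C (1447643_x_at). The groups stood far apart, with the epithelial pools close to the level of the bacterial control probe sets (27 of them, with means of 5.92, 6.03 and 6.07 on the epithelial arrays). The difference was -5.80 ± 0.23 (SE, limma, adjusted p = 1.08e-21), or 55.7-fold, against epithelial values at the level of those controls. The other probe set, 1418673_at, had 6.3, 6.9 and 6.0 in epithelium, against 11.4, 11.0 and 11.1 in mesenchyme. It gave -4.77 ± 0.24 (SE, limma, adjusted p = 1.39e-18), or 27.2-fold.

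Snai1, the founding vertebrate Snail, had 8.2, 8.1 and 8.3 in epithelium A, B and C, against 9.3, 9.1 and 8.9 in mesenchyme A, B and C (1448742_at). Mesenchyme lay above epithelium on all arrays. The difference of -0.90 ± 0.23 (SE, limma, adjusted p = 0.00151) stayed short of 2-fold, and it reached it without mesenchyme C (-1.0) and with spike-in scaling (-1.16).

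Zeb2, a zinc-finger homeobox repressor also active in neural crest, had 5 probe sets. The brightest on average, 1458941_at, had 8.7, 9.1 and 8.8 in epithelium A, B and C, against 10.3, 10.2 and 10.0 in mesenchyme A, B and C, a difference of -1.30 ± 0.23 (SE, limma, adjusted p = 1.33e-05). Probe set 1456389_at had 5.2, 5.3 and 5.3 in epithelium, against 11.1, 10.7 and 11.1 in mesenchyme, and 1422748_at had 5.2, 5.3 and 5.3 in epithelium, against 11.1, 10.4 and 10.5 in mesenchyme. These epithelial values lay under the mean of the bacterial controls on each array. Probe set 1434298_at had 5.1, 4.9 and 5.2 in epithelium, against 11.0, 10.2 and 10.4 in mesenchyme. The difference was -5.70, or 52.0-fold, on 1456389_at (limma, adjusted p = 1.62e-21), -5.40, or 42.2-fold, on 1422748_at (adjusted p = 1.67e-20) and -5.47, or 44.2-fold, on 1434298_at (adjusted p = 1.86e-20). The dimmest, 1454200_at, had 5.6, 5.5 and 5.5 in epithelium, against 8.2, 7.5 and 7.4 in mesenchyme, and gave -2.17 ± 0.24 (SE, limma, adjusted p = 1.24e-09). All 5 were called higher in mesenchyme, so the direction of Zeb2 did not turn on the probe set but its size did. The call on 1458941_at was lost after quantile normalization (-0.98). The call on the gene, which this probe set represents, was also lost on testing against a difference of 1.

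Zeb1, the paralog of Zeb2, had 8.8, 9.1 and 9.2 in epithelium A, B and C, against 11.7, 11.7 and 11.5 in mesenchyme A, B and C (1418926_at). The groups were separate, with a difference of -2.60 ± 0.23 (SE, limma, adjusted p = 4.26e-12). Probe set 1446127_at had 5.4, 5.5 and 5.6 in epithelium, under the bacterial controls, against 9.8, 9.5 and 9.6 in mesenchyme. It gave -4.13 ± 0.23 (SE, limma, adjusted p = 9.49e-18). Probe set 1443005_at had 8.0, 8.2 and 8.3 in epithelium, against 9.1, 9.0 and 9.1 in mesenchyme, and at -0.90 (limma, adjusted p = 0.00138) it was short of 2-fold. The exception was 1420243_at, with 7.9, 8.5 and 8.5 in epithelium, against 8.1, 7.7 and 7.8 in mesenchyme. Its groups overlapped, at 0.43 ± 0.24 (SE, limma, adjusted p = 0.157), and the annotation gave it no transcript accession.

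Twist2, a helix-loop-helix factor of mesodermal and dermal cells, had 8.8, 8.9 and 8.7 in epithelium A, B and C, against 10.0, 10.2 and 9.8 in mesenchyme A, B and C (1448925_at). The groups did not overlap, and the difference was -1.20 ± 0.23 (SE, limma, adjusted p = 4.15e-05). It fell short of 2-fold after quantile normalization (-0.88), cyclic loess (-0.92) and with equal medians (-0.90). As a gene, Twist2 also lost its call on testing against a difference of 1. Twist1, its paralog, had 6.6, 6.9 and 7.0 in epithelium A, B and C, against 7.4, 7.5 and 7.7 in mesenchyme A, B and C (1418733_at). Mesenchyme lay above epithelium throughout, but the difference was -0.70 ± 0.23 (SE, limma, adjusted p = 0.0137), short of 2-fold. Both tissues lay not far above background for Twist1. Its values were 0.68 to 0.93 above the mean of the bacterial controls in epithelium and 1.25 to 1.55 above it in mesenchyme.

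Of the 14 probe sets of Snai, Twist and Zeb genes, 10 were called higher in mesenchyme, beside the 15.5% of all probe sets. Mesenchymal arrays lay wholly above epithelial arrays on 13 of the 14, beside 29.3% of all probe sets, and the groups overlapped on 1. The differences ranged from -5.80 to 0.43 with a median of -2.38, against -0.17 over all probe sets. By gene, 4 of 6 were called higher in mesenchyme, beside 15.9% of all genes. Of the epithelial regulators, 2 of 4 genes were called higher in epithelium, beside 8.19% of all genes. Of all 22 probe sets, 5 had their 3 epithelial values under the mean of the bacterial controls, and 0 had their 3 mesenchymal values there. A fold can be understated where a value lies at background, and by how much was not tested.

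**Figure D2:**
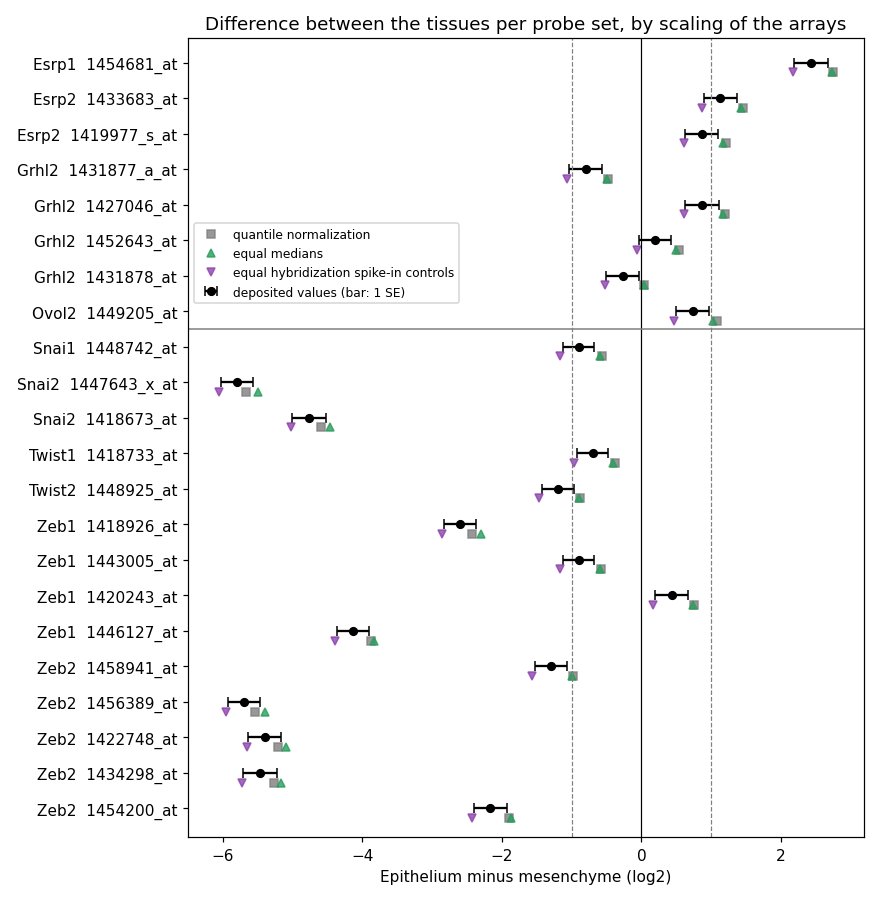
Difference between the tissues (x axis, epithelium minus mesenchyme, log2) for each of the 22 probe sets (rows). Black circles with bars show the deposited values with 1 SE, and the other marks show 3 rescalings of the arrays. Dashed lines mark a difference of 1 in either direction. The probe sets that stay beyond the lines under all scalings include Esrp1, both of Snai2 and Zeb1 1418926_at. Those that cross them include Esrp2 1433683_at, Twist2 and Zeb2 1458941_at.

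Paralogs were compared through the difference in log2 value within each array, using the brightest probe set of each. That difference mixes probe sets, so only its change between tissues can be read. Esrp1 minus Esrp2 was -0.1, 0.1 and -0.1 in epithelium A, B and C, against -1.6, -1.3 and -1.1 in mesenchyme A, B and C. Esrp1 therefore differed between tissues by 1.30 more than Esrp2. Snai1 minus Snai2 was 2.2, 2.3 and 2.2 in epithelium, against -2.7, -2.5 and -2.8 in mesenchyme, a change of 4.90. Twist1 minus Twist2 was -2.2, -2.0 and -1.7 in epithelium, against -2.6, -2.7 and -2.1 in mesenchyme, and overlapped. Zeb1 minus Zeb2 was 0.1, 0.0 and 0.4 in epithelium, against 1.4, 1.5 and 1.5 in mesenchyme, a change of -1.30. With the mean of all probe sets that change was 2.21, so its direction turned on the Zeb2 probe set chosen. By two-sided exact permutation the p was 0.1 for Esrp, Snai and Zeb and 0.2 for Twist (0.133 and 0.2 after adjustment over 4 pairs), and 0.1 is the smallest p that 3 against 3 allows.

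**Figure D3:**
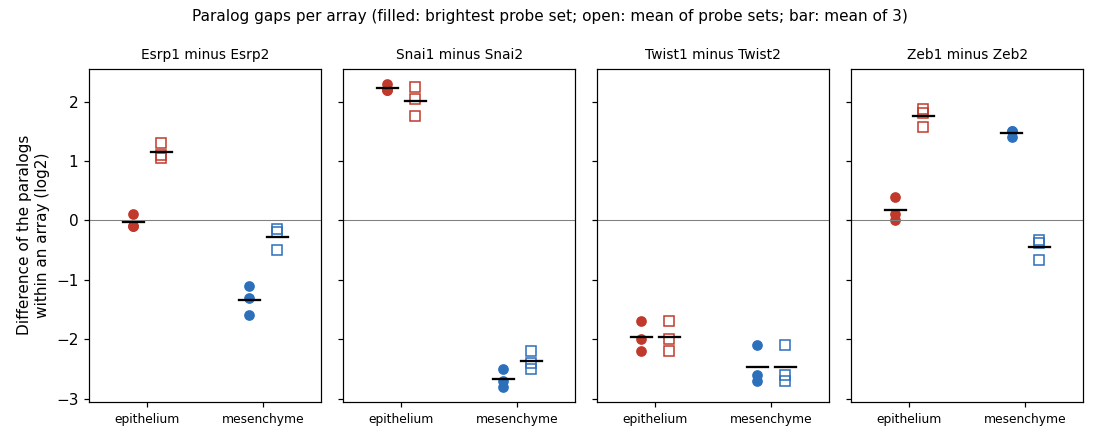
Difference in log2 value within each array (y axis) between the paralogs of 4 pairs, for 3 epithelial (red) and 3 mesenchymal (blue) arrays. The Snai1 minus Snai2 points lie at 2.2 to 2.3 in epithelium and at -2.8 to -2.5 in mesenchyme, while the Twist points overlap.

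Genes linked to the members were described from lists, with p-values adjusted over all genes. The lists were chosen with earlier results of these data known. Of their 6 measured relatives, 1 was called higher in epithelium, beside 8.19% of all genes, and 0 higher in mesenchyme, beside 15.9%. With so few genes these shares carry little weight. The called gene, Ovol1, a paralog of Ovol2, had 9.6, 10.5 and 9.8 in epithelium, against 7.5, 7.1 and 7.5 in mesenchyme. At 2.60 ± 0.24 (SE, limma, adjusted p = 2.2e-11) it was well past 2-fold, while its other probe set, at 1.07 ± 0.24, was called but lay at the 2-fold line. Not called were Grhl1 (0.40) and Grhl3 (0.37) of the grainyhead family, Snai3 (-0.10), and the Snail-related Scrt1 (-0.30) and Scrt2 (0.30). The list median was 0.33, against -0.17 over all genes.

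Of 23 epithelial genes known as targets of the members, 21 were called higher in epithelium, beside 8.19% of all genes, and 0 higher in mesenchyme. The 4 largest differences were in the E-cadherin gene Cdh1 (5.63), the adhesion gene Epcam (4.63, and 0.53 on its other probe set), the claudin Cldn7 (4.33) and the desmosome gene Dsp (3.83). Cdh1 had 12.9, 13.4 and 13.3 in epithelium, against 8.0, 6.7 and 8.0 in mesenchyme, with no overlap. The 2 genes not called, named after their values were seen, were Pkp3 (0.90), whose other probe set was called higher in epithelium at 3.07, and Muc1 (-0.43). Pkp3 was also called with quantile normalization, cyclic loess, equal medians and the mean of its probe sets. The call on Crb3 was lost with spike-in scaling. Those on Crb3, Cldn3, Cldn4 and Ocln, named after their values were seen, were lost on testing against a difference of 1. The list median was 2.17.

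Of 22 measured mesenchymal genes that rise in EMT, 19 were called higher in mesenchyme, beside 15.9% of all genes, with a list median of -4.03. The largest differences were in the collagens Col1a1 (-7.20) and Col3a1 (-7.17), the cadherin Cdh11 (-6.97) and the receptor Pdgfra (-6.97). Several of these genes are also fibroblast markers, and Vim, on this list, had been used to choose the pools. Not called were S100a4 (-0.97), Foxc1 (0.07) and Prrx1 (0.43), named after their values were seen.

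Twist proteins pair with other helix-loop-helix proteins, and Id proteins sequester those partners. Of 9 such genes, 6 were called higher in mesenchyme, beside 15.9% of all genes, and 0 in epithelium, beside 8.19%. The median was -1.43, against -0.17 over all genes. The E proteins Tcf4 (-2.17) and Tcf12 (-1.43), Hand2 (-4.07), a regulator of enteric neurons and heart, and the inhibitors Id1 (-1.03), Id3 (-2.77) and Id4 (-2.90) were called, and Tcf3 (-0.67), Hand1 (-0.87) and Id2 (-0.87) were not. The call on Id1 was lost with quantile normalization, cyclic loess, equal medians and on leaving out mesenchyme C, epithelium C or epithelium A. Testing against a difference of 1 lost the calls on Id1 and Tcf12.

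Of 13 corepressors that Snai and Zeb proteins recruit, 2 were called higher in mesenchyme and 0 in epithelium: the histone deacetylase Hdac2 (-1.77) and the LIM protein Ajuba (-2.03). This share is near the 15.9% of all genes. The other 11 were not called, and the median was -0.67, against -0.17 over all genes.

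Of 10 genes whose transcripts Esrp proteins splice, 5 were called higher in mesenchyme, beside 15.9% of all genes, and 0 in epithelium, with a median of -0.80, against -0.17 over all genes. The largest were the hyaluronan receptor Cd44 (-3.47), the actin regulator Enah (-2.33), the kinase Slk (-1.53) and the growth factor receptor Fgfr2 (-1.37). Which isoforms the probe sets read was not tested, and probe sets of 1 gene differed, from -4.33 to 0.93 for Cd44 and from -1.90 to -0.30 for Fgfr2. Of 17 other splicing regulators, 5 were called higher in mesenchyme, again beside 15.9% of all genes, led by Celf2 (-3.60), Ptbp2 (-3.50), Khdrbs3 (-2.90) and Rbm24 (-2.27). In epithelium 1 was called higher, the RNA-binding protein gene Rbm47 (2.97), a share near the 8.19% of all genes. The median of that list was -0.80. The calls on Slk, Uap1, Rbm24 and Nova1 were lost with the mean of their probe sets. On testing against a difference of 1, the calls on Fgfr2, Slk, Uap1 and Nova1 were lost. Those on Uap1 (-1.07) and Nova1 (-1.13), named after their values were seen, were also lost with quantile normalization, cyclic loess, equal medians and without epithelium A, and that on Nova1 without mesenchyme A.

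**Figure D4:**
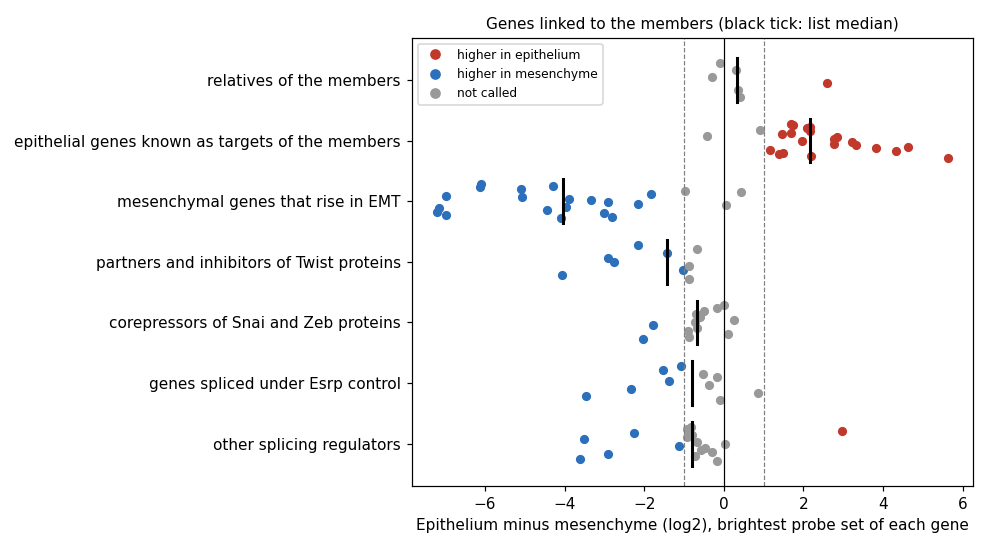
Difference between the tissues (x axis, epithelium minus mesenchyme, log2, brightest probe set of each gene) for the genes of 7 lists (rows), with a black tick at each list median. Red points were called higher in epithelium, blue points higher in mesenchyme and grey points were not called. The epithelial targets lie almost wholly to the right of 1 (median 2.17) and the mesenchymal EMT genes almost wholly to the left of -1 (median -4.03).

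The gene with the profile most like each member over the 6 arrays was found by the root mean square difference of values centred on each gene's mean. For Esrp1 it was Fzd5, a Wnt receptor gene, at 0.037, and for Ovol2 it was Syne4 at 0.09. For Snai2 it was Flna, the filamin A gene, at 0.129, and for Zeb1 it was Casp12 at 0.069. For the others it was Lcor (Esrp2, 0.075), Bdp1 (Grhl2, 0.037), Adpgk (Snai1, 0.069), Tada2a (Twist1, 0.047), Man1c1 (Twist2, 0.047) and Tcf19 (Zeb2, 0.037). With 6 arrays and values rounded to 0.1 these matches are descriptions only.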

How the data were processed

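The authors deposited log2 values, 1 for each probe set and array. Per the submitters' processing notes they come from RMA, whose version and settings are not given in the sources used here. They ranged from 4.6 to 15.2 and carried no detection calls, so the number of arrays limits the precision. After 64 controls were removed, limma 3.58.1 (R 4.3.3) with eBayes was fitted to 45037 probe sets, with Benjamini-Hochberg adjustment over all of them. Of these, 34945 had 1 symbol, 932 several and 9160 none. Symbols were updated through gene ID or a unique synonym (59 probe sets changed). For genes, the probe set with the highest mean stood for each of 18161, with adjustment over genes. The members and lists were chosen with earlier results of these data known. Named genes were all members, the 4 largest called genes of each list with those in the minority direction, all relatives and Twist partners, and the gene nearest to each member. Linear sums are of 2 raised to the deposited values. Alternatives were other scalings, a floor of 7 on dim probe sets, other tests and thresholds, the mean of probe sets, a replicate block and each array left out. On simulated data for the comparison of the tissues over 18161 genes, 73 of 76 genes changed by 1.5 on the log2 scale were called, and all 57 changed by 2 and all 67 changed by 3.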

Additional observations from a re-analysis of the deposited data

How the results depend on the processing

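Among the members, Esrp1, Snai2 and Zeb1 kept their calls under every alternative run. Quantile normalization left 2 of the Snai, Twist and Zeb genes called and called 5 epithelial probe sets, cyclic loess 4 and equal medians 5. The share of calls higher in mesenchyme was 66% as deposited, 53% with quantile normalization, 55.4% with loess, 49.4% with equal medians and 77.5% with spike-in scaling. Spike-in scaling left 1 epithelial gene and 1 epithelial probe set called, and rested on controls at 9.80 in mesenchyme B, against 10.59 and 10.76 in mesenchyme A and C. Grhl2 1431878_at turned to 0.044 with quantile normalization and 0.033 with equal medians, and 1452643_at to -0.061 with spike-in scaling. Testing against a difference of 1 (treat) left 1 epithelial gene (Esrp1), 2 Snai, Twist and Zeb genes (Snai2 and Zeb1) and 1 epithelial probe set. It left 815 and 1529 of all genes higher in epithelium and mesenchyme. With no minimum difference these were 2513 and 4977, and 5 epithelial probe sets. The mean of probe sets gave changes of 4.38 for the Snai pair and 2.21 for the Zeb pair. Leaving out 1 array at a time gave 1265 to 1666 genes higher in epithelium and 2491 to 3499 in mesenchyme, 1 to 2 epithelial and 4 to 5 Snai, Twist and Zeb genes, and 1 (without epithelium B) to 4 (without epithelium A) epithelial and 10 to 11 other probe sets. The pair changes then ranged over 1.17 to 1.42 (Esrp), 4.83 to 4.98 (Snai), 0.37 to 0.68 (Twist) and -1.42 to -1.22 (Zeb). Deviations of the arrays from the mean of their tissue correlated at -0.311, -0.151 and 0.12 between same-letter pools. This does not show that the letters pair the tissues. Deviations of pools with different letters correlated at up to 0.36, and whether the letters pair pools is not stated. The values themselves correlated at up to 0.813 between arrays of different tissues. With them as a replicate block, 1482 and 2881 genes were called, with 2 and 4 member genes and 2 and 10 member probe sets, and no member call changed. Leaving out dim probe sets, or using a trended and robust eBayes, changed no member call either. Taking the probe set brightest in its higher tissue, chosen after seeing the data, gave Zeb2 -5.70. The causes were not tested. Epithelial signal lay near or under the mean of the bacterial controls on the Snai2 probe sets and on some Zeb1 and Zeb2 probe sets. On the brightest probe set it lay 2.88 to 3.13 above that mean for Zeb1 and 2.73 to 3.07 above it for Zeb2. How far background limited the folds was not tested.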

Other observations

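Prrx1, a homeobox gene of limb and craniofacial mesenchyme that is also known to drive EMT, was not called higher in mesenchyme on any probe set. Its 6 probe sets differed by 0.03 to 1.47, and 1 was called higher in epithelium. The brightest had 8.2, 8.8 and 8.1 in epithelium A, B and C, against 8.3, 7.5 and 8.0 in mesenchyme A, B and C, and the groups overlapped. Tcf4, an E protein that pairs with Twist proteins, was called higher in mesenchyme on all 6 of its probe sets, with differences of -5.57 to -2.17. Enah, a target of Esrp splicing, was likewise called on all 6, at -4.43 to -1.27. Rbm47 was called higher in epithelium on 2 of its 3 probe sets, which ranged over -0.03 to 5.20. These genes were singled out after their values were seen.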
